A study of Homo sapiens with 2 samples.

Results

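The genes described here encode the machinery that makes ribosomes: subunits and initiation factors of RNA polymerase I, and the nucleolar proteins that process, modify and fold ribosomal RNA (rRNA). They are a list of 50 named genes, found by Entrez Gene identifier among the 16085 genes and assembled loci listed in either of 2 RNA-seq libraries. All 50 were listed in both libraries. The series compared MDA-MB-231, a human triple-negative breast carcinoma line, carrying a control short hairpin RNA (shCtrl, 1 library) with the same line carrying a hairpin against ZEB1 (shZEB1, 1 library), a repressor known for the epithelial-to-mesenchymal transition. No other treatment is named in the labels, and the hairpin sequences, the vector and whether each line was 1 clone were not stated there.

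RNA polymerase I copies the ribosomal DNA repeats in the nucleolus into a long precursor rRNA. Small nucleolar ribonucleoproteins (snoRNPs) guide its chemical modification, and large sets of assembly factors cut, fold and join it with ribosomal proteins into the small and the large subunit. Cells that grow fast make many ribosomes, and many of these genes are known targets of MYC. The comparison asked whether this growth machinery followed the cell cycle genes, which were slightly higher in shZEB1.

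Totals of 8740584 and 8441491 assigned reads stood behind shCtrl and shZEB1. ZEB1 itself reached an FPKM (fragments per kilobase, scaled for library depth) of 0.88 in shCtrl (46 reads) and of 0.31 in shZEB1 (15 reads). Markers of the melanocyte lineage were abundant in both libraries: 12 of 13 reached an FPKM of 1, their summed FPKM was 1872 in shCtrl and 1408 in shZEB1, and OCA2 was in neither file. Of 13 markers of basal-type breast lines, 9 reached an FPKM of 1, with summed FPKM of 491 and 519.8. Most of that sum came from MSN (198.5 and 234.8) and CD44 (146.8 and 134.2). CAV1 had 46.6 and 44.0, KRT18 40.5 and 58.7, PLAUR 38.85 and 31.45 and AXL 11.1 and 9.12. S100A2 had 7.05 and 4.13, F3 0.87 and 1.82 and KRT7 0.74 and 1.67. EGFR had 0.52 and 0.65, KRT14 0 and 0.07, and KRT19 and KRT5 were in neither file. The breast markers were thus mixed, and EGFR and the keratins other than KRT18 were low or absent. The abundant melanocyte markers went against the label of a breast carcinoma line. The libraries are called shCtrl and shZEB1 throughout. Of 10 macrophage markers 1 reached an FPKM of 1 (FCER1G, 1.51 and 1.32), and 3 defining ones, PTPRC, TYROBP and CD163, were in neither. Of 8 fibroblast markers 2 did (LUM, 0.56 and 1.55, and FAP, 1.30 and 1.63). The lower melanocyte sum in shZEB1 came mainly from PMEL (703 and 405) and DCT (225 and 123). SOX10 (174.8 and 170.5), MITF (55.1 and 52.2) and TYRP1 (222.6 and 227.6) had nearly equal levels. Of the 12 melanocyte markers, 8 were below equality and 4 above it. The part of the lower melanocyte sum in the results below was not tested. Fewer cells of a type and less RNA per cell cannot be told apart in such bulk libraries.

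Ribosome biogenesis genes were not higher in shZEB1. With 1 library per group no test between conditions was possible, so genes are counted here as higher or lower if 2 things held: the log2 ratio of FPKM (1 added, shZEB1 over shCtrl) was at least 0.32 in size, and the 95% interval of the read ratio (exact binomial, counting error only) excluded 1. By this rule 0 of the 50 genes were higher, against 15.4% of the 12274 genes and loci with an FPKM of at least 1 in either library, and 9 were lower, against 13.1%. The 9 make up 18% of the 50. The median log2 ratio of FPKM (with 1 added) was -0.07 over the 50 genes and 0.02 over all measured genes. Above 0 lay 18 of the 50, a share of 36% against 53.1% of all measured genes. The read interval alone lay above 1 for 10 genes (27.9% of all measured) and below 1 for 17 (21.4% of all measured), and it included 1 for 23. With values rescaled to TPM the rule counted 1 of the 50 as higher (LTV1) and 4 as lower (POLR1D, NOP10, NIP7 and EBNA1BP2), against 20.3% and 11.2% of all measured genes.

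**Figure D1:**
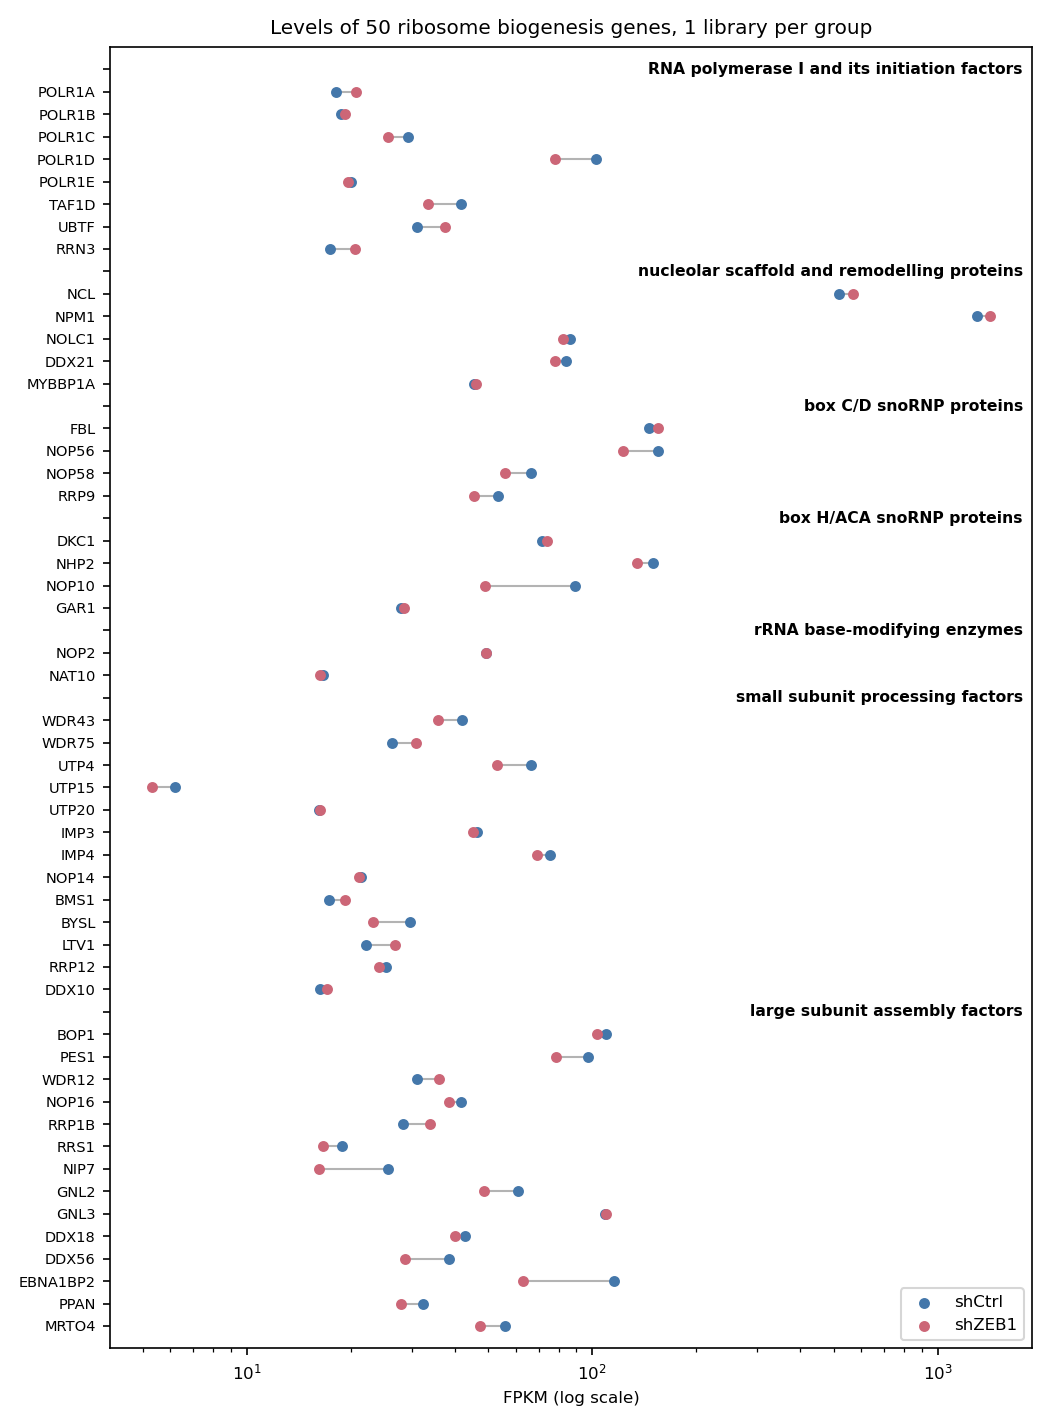
FPKM of each of the 50 genes (log axis) in the shCtrl library (blue) and the shZEB1 library (red), 1 library each, grouped by role. NPM1 and NCL lie far above the rest, and the longest grey lines, those of EBNA1BP2, NOP10 and NIP7, run to lower levels in shZEB1.

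These genes were well expressed. Their FPKM ran from 6.21 (UTP15) to 1300.4 (NPM1) in shCtrl and from 5.32 to 1419 for the same pair of genes in shZEB1, and 49 of the 50 had at least 10 in both libraries. The median was 41.8 in shCtrl and 38.04 in shZEB1, against 11.1 and 11.2 over all measured genes. Together they held 0.90% of the reads in shCtrl (95% exact binomial interval 0.894 to 0.906) and 0.897% in shZEB1 (0.891 to 0.903). The ratio of their summed reads was 0.997, with an interval of 0.987 to 1.01. That sum rests on NPM1 and NCL, and without them the ratio was 0.942 (interval 0.930 to 0.954). Across the 50 genes the order of the levels was nearly the same in both libraries (Spearman rho 0.97, across genes of the same pair of libraries).

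Genes lowest in shZEB1 relative to shCtrl were EBNA1BP2, NOP10 and NIP7. EBNA1BP2 (chr1:43164174-43172570), a nucleolar scaffold of large subunit assembly, had 1354 reads in shCtrl and 718 in shZEB1, with FPKM values of 116 and 63.1, a level 1.83-fold lower (read ratio 0.549, interval 0.501 to 0.602). NOP10 (chr15:34341719-34343136), the smallest protein of the box H/ACA snoRNP, had 89.2 and 49.0 FPKM, 1.82-fold lower, from 382 and 206 reads (0.558, interval 0.469 to 0.663). NIP7 (chr16:69339772-69343106), which takes part in maturation of the ribosomal precursors, had 25.6 and 16.1 FPKM, 1.59-fold lower, from 507 and 310 reads (0.633, interval 0.548 to 0.731). These 3 were the only ones of the 50 past a fold of 1.5 in either direction, against 4.99% of all measured genes upward and 5.42% downward. Past a fold of 2 were 0 of the 50, against 0.937% upward and 1.61% downward. Exons of EBNA1BP2 share 668 bases with CFAP57 on the opposite strand, but CFAP57 was not listed in shCtrl and had 2 reads in shZEB1. Exons of NIP7 share 957 bases with COG8 on the opposite strand, and COG8 had 282 and 302 reads. Whether reads were assigned by strand is not known from the notes or headers.

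Promoters of these genes are shown because 5 of the 9 lower genes carry CACGTG, the E-box that MYC and its partner MAX are known to bind. The first 4 sequences below belong to genes counted as lower and hold it. NIP7 is lower and has no match, while UTP20 has a match and nearly equal levels. Each runs from 250 bases before the start of the gene to 30 after it, from RefSeq on GRCh38.p14, with the E-box in capitals. They lie at chr1:43172541-43172820 (EBNA1BP2, minus strand), chr15:34343107-34343386 (NOP10, minus), chr16:69132399-69132678 (UTP4, plus), chr1:37595908-37596187 (GNL2, minus), chr16:69339522-69339801 (NIP7, plus) and chr12:101279855-101280134 (UTP20, plus).
EBNA1BP2: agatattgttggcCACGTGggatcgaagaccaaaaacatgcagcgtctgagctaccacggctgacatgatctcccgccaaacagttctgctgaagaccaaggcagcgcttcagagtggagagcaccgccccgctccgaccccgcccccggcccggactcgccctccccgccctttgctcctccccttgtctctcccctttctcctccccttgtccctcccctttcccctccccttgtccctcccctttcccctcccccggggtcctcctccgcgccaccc
NOP10: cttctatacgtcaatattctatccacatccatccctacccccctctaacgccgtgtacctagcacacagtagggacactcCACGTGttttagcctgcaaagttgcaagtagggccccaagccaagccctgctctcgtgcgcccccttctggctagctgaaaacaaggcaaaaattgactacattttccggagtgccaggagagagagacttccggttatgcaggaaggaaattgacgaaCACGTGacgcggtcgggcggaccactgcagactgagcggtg
UTP4: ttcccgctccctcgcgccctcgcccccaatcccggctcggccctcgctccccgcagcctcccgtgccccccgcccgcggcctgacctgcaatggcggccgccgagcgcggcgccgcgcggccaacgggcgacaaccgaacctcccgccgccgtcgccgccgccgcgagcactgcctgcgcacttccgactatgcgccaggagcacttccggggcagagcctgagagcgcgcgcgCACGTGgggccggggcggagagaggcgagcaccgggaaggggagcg
GNL2: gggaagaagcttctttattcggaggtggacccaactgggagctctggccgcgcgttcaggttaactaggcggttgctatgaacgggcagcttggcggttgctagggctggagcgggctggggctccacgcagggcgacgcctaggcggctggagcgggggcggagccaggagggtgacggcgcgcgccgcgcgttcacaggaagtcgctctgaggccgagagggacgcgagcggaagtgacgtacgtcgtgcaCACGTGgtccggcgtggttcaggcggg
NIP7: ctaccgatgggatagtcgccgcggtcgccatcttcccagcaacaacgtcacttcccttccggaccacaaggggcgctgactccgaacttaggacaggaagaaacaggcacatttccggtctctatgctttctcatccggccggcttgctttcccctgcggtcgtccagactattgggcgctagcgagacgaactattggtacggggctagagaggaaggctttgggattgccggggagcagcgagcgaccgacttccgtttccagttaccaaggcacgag
UTP20: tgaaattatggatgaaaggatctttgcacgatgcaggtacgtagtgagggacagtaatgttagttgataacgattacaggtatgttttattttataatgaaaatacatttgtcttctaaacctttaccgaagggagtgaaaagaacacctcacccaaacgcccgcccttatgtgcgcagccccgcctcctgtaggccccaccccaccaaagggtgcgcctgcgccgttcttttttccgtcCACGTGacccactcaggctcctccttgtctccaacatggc

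In the full window of 250 bases before to 50 after the start, CACGTG was present in 17 of the 42 promoters found for the 50 genes (40.5%), against 1010 of 9546 promoters of measured genes (10.6%). The motif is its own reverse complement, so a match counts for both strands. Of 19 matches in the 42 promoters, 16 began between 16 bases before and 36 bases after the start. None of the 19 overlapped a match to the other motifs searched, all on both strands. CAGGTG, the E-box that ZEB1 is known to bind, was in 1 of the 42 (UTP15, 2.38%) against 17.2% of all. CCGGAAG, the core of ETS factor sites, was in 14 (33.3%, against 20.5%), and in 4 of the 9 lower genes. GCATGCGC, the core of the NRF1 motif, was in 3 of the 42 (7.14%, against 5.8%). TGATGNAA, a composite site of ATF4, was in 0 of the 42, against 1.61% of all. The median GC content was 63.3% in the 42 windows and 65.7% in all 9546. A match is a run of letters and does not show binding. No window was found for POLR1E, NOLC1, NOP58, RRP12, RRP1B, RRS1, DDX18 and BOP1.

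**Figure D2:**
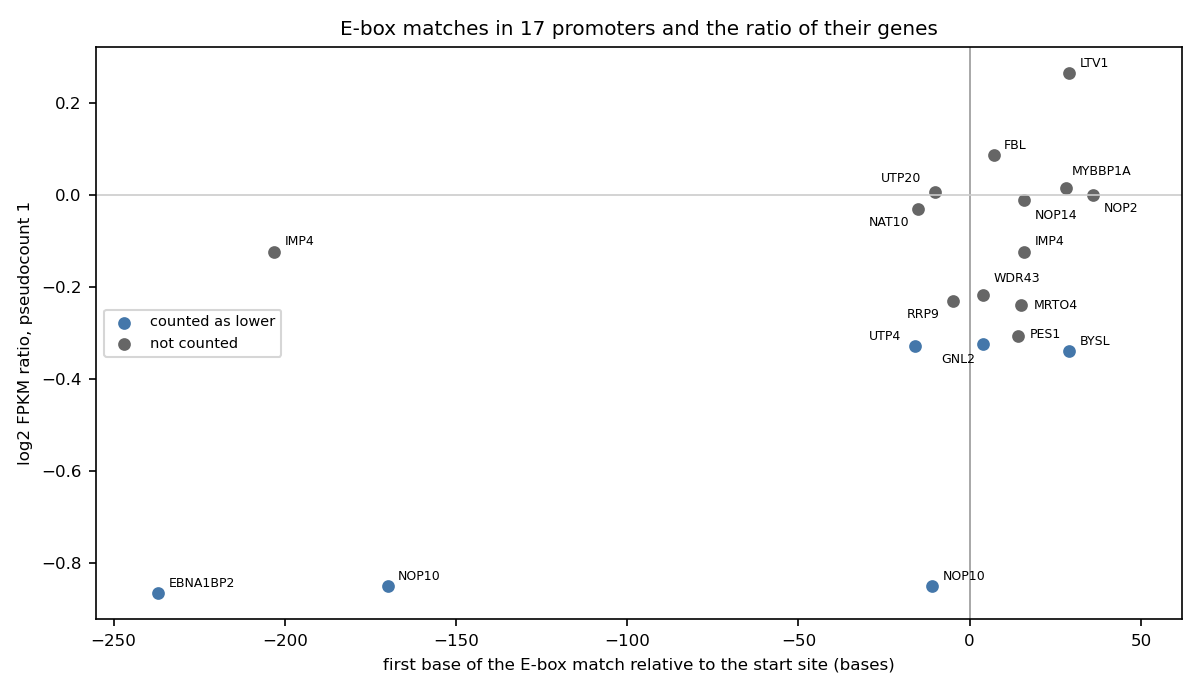
Position of each of the 19 E-box matches relative to the start site of its gene (x axis, bases) and the log2 FPKM ratio of that gene (y axis, shZEB1 over shCtrl, 1 added), with genes counted as lower in blue. Most matches lie beside the start, that of EBNA1BP2 far before it, and their genes span nearly the whole range of ratios, from EBNA1BP2 and NOP10 at the bottom to LTV1 at the top.

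Genes with and without the motif overlapped in their ratios. The 17 genes with CACGTG had a median log2 ratio of -0.22, and 5 of them were counted as lower. The 25 without it had a median of 0.01, and 4 were counted as lower. Over all measured genes the median was 0.02, and 13.1% were counted as lower. Ratios of all measured genes with CACGTG were not computed, so the 17 have no matching background. LTV1 carries the motif and had the highest ratio of all 50 genes. MYC, which is known to bind this E-box, had 1787 reads in shCtrl and 1312 in shZEB1, with FPKM values of 88.0 and 66.7 (read ratio 0.760, interval 0.707 to 0.817), and was counted as lower. MAX, its binding partner, had 31.5 and 35.3 FPKM, with an interval of 1.04 to 1.32. The part of MYC in the levels of these genes was not tested.

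RNA polymerase I genes lay on both sides. POLR1A, the largest catalytic subunit, had 18.1 FPKM in shCtrl and 20.7 in shZEB1 (interval of the read ratio 1.055 to 1.249), while POLR1B, the second catalytic subunit, had 18.8 and 19.2 (interval 0.942 to 1.17). POLR1D, a small assembly subunit shared with RNA polymerase III, was the only one of the 8 counted as lower, at 102 and 77.9 FPKM from 934 and 696 reads (interval 0.698 to 0.852). POLR1C, its partner in both polymerases, had 29.2 and 25.6 FPKM, and POLR1E, a peripheral subunit, 20.0 and 19.7. The intervals of both included 1. Within this complex the small shared subunit was thus lower and the largest subunit slightly above equality.

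Factors that bring the polymerase to its promoter differed among themselves. UBTF, which binds the ribosomal DNA promoter and gene body, had 31.1 and 37.5 FPKM from 1269 and 1484 reads (interval 1.12 to 1.31). RRN3, the bridge between polymerase and promoter factors, had 17.4 and 20.5 FPKM (interval 1.06 to 1.33). Neither reached the size needed to be counted. TAF1D, a subunit of the selectivity factor SL1, had 41.7 and 33.4 FPKM but 758 and 747 reads (interval 0.921 to 1.13). The length the authors used for TAF1D was 2136 bases in shCtrl and 2697 in shZEB1, so its levels parted per length and not in reads.

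Abundant nucleolar proteins had small differences. NPM1, a histone and ribosomal protein chaperone of the granular nucleolus, had 1300.4 and 1419 FPKM from 15520 and 16432 reads (read ratio 1.096, interval 1.07 to 1.12). NCL, which binds precursor rRNA, had 518 and 567 FPKM (1.099, interval 1.07 to 1.13). NOLC1, a phosphoprotein that meets snoRNPs in the nucleolus, had 86.0 and 82.5, and MYBBP1A, a nucleolar protein that binds transcription factors, had 45.6 and 46.1, both with intervals that included 1. DDX21, an RNA helicase of the nucleolus, had 83.9 and 77.8 (interval 0.885 to 0.976). None of these 5 genes was counted as higher or lower. GENCODE names 45 pseudogenes after NPM1, and 0 of them were listed in the files. The same held for named pseudogenes of the other genes, so whether reads of such copies were assigned to NPM1 is not known.

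Proteins of the box C/D snoRNP, which guides methylation of rRNA, parted among themselves. FBL, the methyltransferase itself, had 146 and 155 FPKM (interval 0.994 to 1.15). NOP56, a core protein of the particle, was counted as lower at 155 and 123 FPKM from 2805 and 2170 reads (interval 0.757 to 0.848). NOP58, its paralog in the same core, had 66.5 and 55.8 (interval 0.772 to 0.919), and RRP9, specific to the U3 particle that guides early cuts, had 53.4 and 45.4 (interval 0.765 to 0.954). FBL thus had an interval that included 1, while NOP56, NOP58 and RRP9 had intervals below 1.

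Box H/ACA proteins, whose particle guides the conversion of uridine to pseudouridine, differed mainly at NOP10. DKC1, the pseudouridine synthase, had 71.6 and 73.9 FPKM and GAR1 27.9 and 28.5, both with intervals that included 1. NHP2 had 150.4 and 135 FPKM (interval 0.830 to 0.992). In shCtrl the FPKM of NOP10 lay between those of DKC1 and NHP2, and in shZEB1 between those of GAR1 and DKC1. Its exons overlap no other gene in GENCODE release 29 apart from small RNAs. Both base-modifying enzymes had nearly equal levels: NOP2, which methylates large subunit rRNA, had 49.3 FPKM in each library, and NAT10, which acetylates small subunit rRNA, had 16.7 and 16.3.

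Small subunit processing factors had a median log2 ratio of -0.04 over 13 genes, of which 2 were counted as lower (15.4%, near the 13.1% of all measured genes) and 0 as higher. BYSL, a late factor, had 29.6 and 23.1 FPKM from 503 and 382 reads (interval 0.687 to 0.90), and UTP4, of the early complex that binds the nascent transcript, had 66.5 and 52.8 from 1286 and 989 reads (interval 0.732 to 0.866). UTP4 shares 70 exon bases with CHTF8 on the opposite strand, which had 973 and 731 reads (interval 0.706 to 0.857). WDR43 and UTP15 belong to the same early complex as UTP4 and had 41.8 and 35.8 (interval 0.791 to 0.933) and 6.21 and 5.32 FPKM (interval 0.716 to 1.03). WDR75, yet another member of it, had 26.2 and 30.9 (interval 1.06 to 1.32). Subunits of the 1 complex therefore lay on both sides of equality.

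Of the other small subunit factors, 2 had intervals above 1 and 6 had intervals that included it. LTV1, needed for export and late maturation of the small subunit, had the highest log2 ratio of the 50 genes, 0.27, at 22.1 and 26.8 FPKM from 344 and 404 reads (interval 1.05 to 1.41). BMS1, a GTPase, had 17.3 and 19.2 (interval 1.024 to 1.201). Those with intervals that included 1 were UTP20, IMP3, IMP4, NOP14, RRP12 and DDX10. Of these 6, IMP4, a partner of U3, had 75.7 and 69.4 FPKM, and UTP20, a large scaffold protein, had 16.2 and 16.3. IMP3 shares 31.2% of its exon bases with SNX33 on the opposite strand, which had 208 and 220 reads.

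Of 14 large subunit assembly factors, 4 were counted as lower (28.6%, against 13.1% of all measured genes), 11 were below 0, and the median log2 ratio was -0.19. With TPM, 2 of the 14 were counted as lower. Besides EBNA1BP2 and NIP7 the lower ones were GNL2, a GTPase (60.9 and 48.4 FPKM, interval 0.733 to 0.869, with 42 exon bases shared with DNALI1, which had 2 reads and 0), and the helicase gene DDX56. DDX56 had 38.6 and 28.7 FPKM, but 1085 and 936 reads (interval 0.818 to 0.976). Its length in the files was 3274 and 3904 bases, and on counts scaled by edgeR or DESeq2 it was not counted.

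The PeBoW complex, which holds large subunit precursors together, had unequal subunits. PES1 had 97.0 and 78.3 FPKM from 1911 and 1495 reads (interval 0.757 to 0.867), a 1.24-fold lower level just short of the rule, and was counted as lower on counts scaled by edgeR or DESeq2. BOP1 had 110 and 103 (interval 0.891 to 1.01), and WDR12 had 31.1 and 35.96 from 609 and 683 reads (interval 1.04 to 1.30). WDR12 thus lay above equality and PES1 below it.

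Among the remaining large subunit genes, RRP1B, a nucleolar scaffold, had 28.3 and 34.0 FPKM (interval 1.11 to 1.30). MRTO4, which resembles the stalk protein of the mature subunit, had 56.0 and 47.4 (interval 0.776 to 0.928). PPAN had 32.3 and 27.9 (interval 0.758 to 0.994), and 56.0% of its exon bases are shared with the read-through gene PPAN-P2RY11, whose reads were 200 and 240. GNL3, a nucleolar GTPase known from stem cells, had 109 and 109.7 FPKM. DDX18, NOP16 and RRS1 also had intervals that included 1, with 42.9 and 39.9, 41.8 and 38.6, and 18.9 and 16.6 FPKM.

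**Figure D3:**
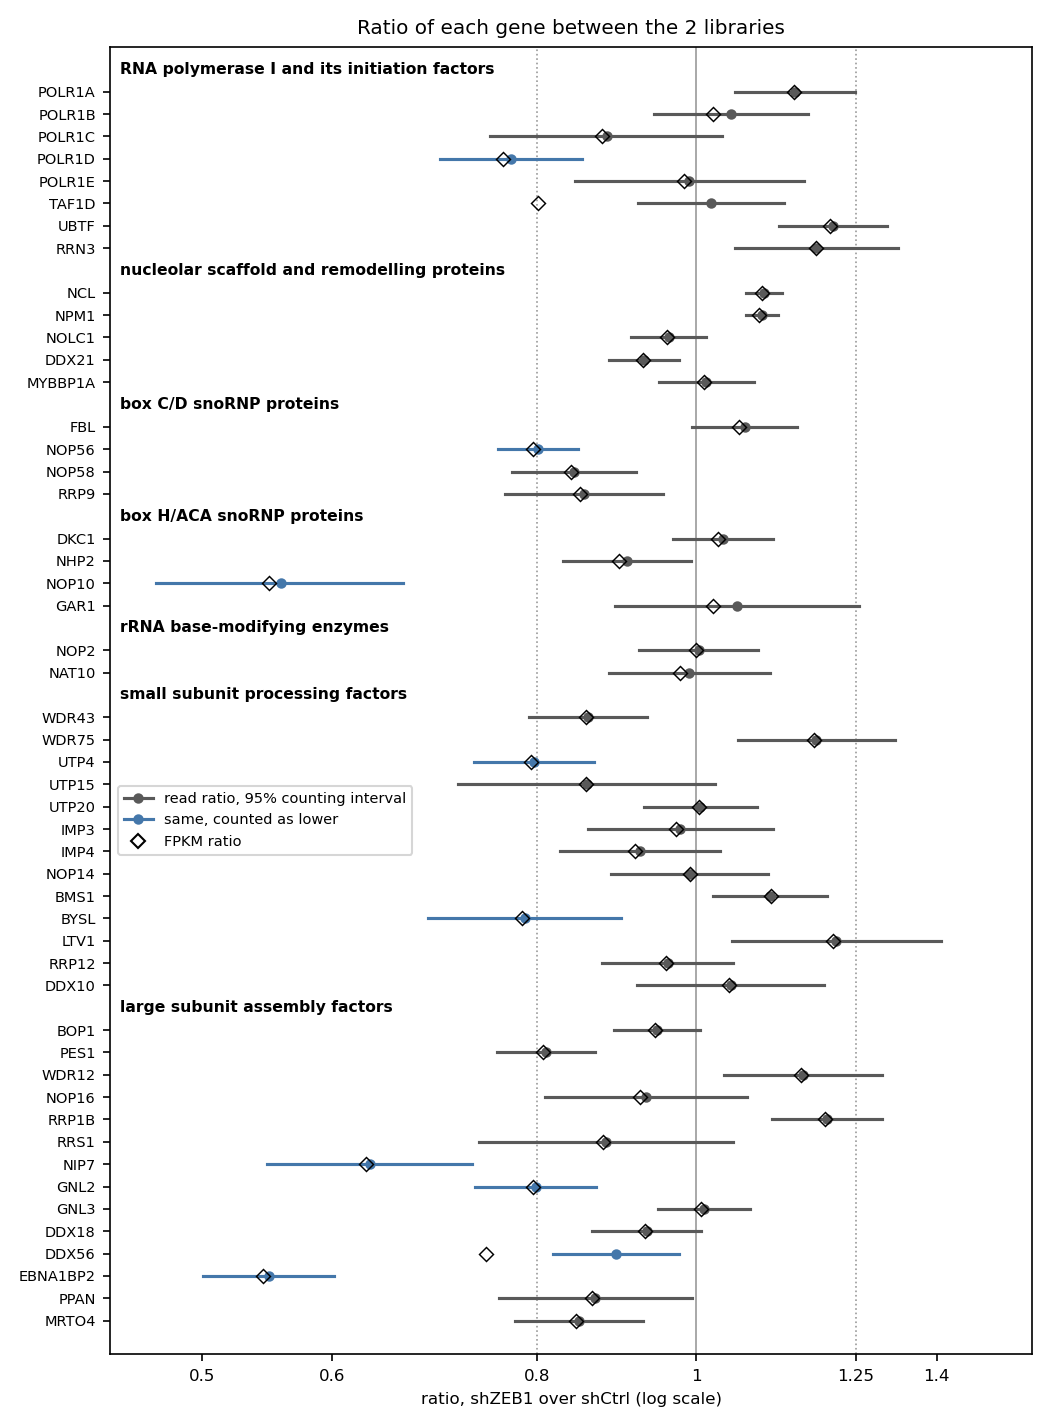
Read ratio of each of the 50 genes, shZEB1 over shCtrl (filled points, log axis), with its 95% counting interval, and the FPKM ratio (open diamonds); genes counted as lower are blue and dotted lines mark the size a difference had to reach. No interval lies wholly beyond the right dotted line, and the diamonds of TAF1D and DDX56 part from their points because the gene length used differed between files.

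A feature that the choice of genes did not use was the presence of snoRNA genes inside them. In GENCODE release 29, 9 of the 50 (18%) held at least 1 snoRNA gene on the same strand, 34 in all, against 216 of 11513 measured genes (1.88%). They were TAF1D with 8, GNL3 with 6, NOP56 with 5, NOP58 with 4, NCL and WDR43 with 3 each, DKC1 and PPAN with 2 each and POLR1C with 1. Their median log2 ratio was -0.20, against -0.06 for the other 41 genes. Over all measured genes the medians were 0.07 for hosts and 0.02 for the rest. The snoRNAs themselves were not measured in these poly(A)-selected libraries.

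Cell cycle genes lay the other way. Of 40 genes of the G1/S transition and DNA replication, 34 were above 0, 13 were counted as higher (32.5%) and 2 as lower, and the median log2 ratio was 0.21. CDC25A, the phosphatase that switches on kinases of S phase entry, had 21.9 and 39.3 FPKM (interval 1.64 to 1.98), and the helicase subunit gene MCM6 48.1 and 68.0 (interval 1.33 to 1.51). The 2 lower ones were CDK2, a kinase of S phase entry (109 and 69.7), and GINS3 of the replication helicase (18.7 and 11.9). Of 38 genes of G2 and mitosis, 31 were above 0, 6 were counted as higher and 1 as lower, with a median of 0.16. The share counted as higher, 15.8%, was close to the 15.4% of all measured genes. KIF20A, a kinesin of cytokinesis, had 45.4 and 72.0 FPKM, TOP2A, which untangles DNA, 87.0 and 137, ECT2 29.4 and 43.9 and INCENP 44.5 and 29.2. The summed reads of the 78 cell cycle genes had a ratio of 1.17 (interval 1.16 to 1.18), beside 0.997 for the ribosome biogenesis genes. No test of the difference between the lists was possible.

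**Figure D4:**
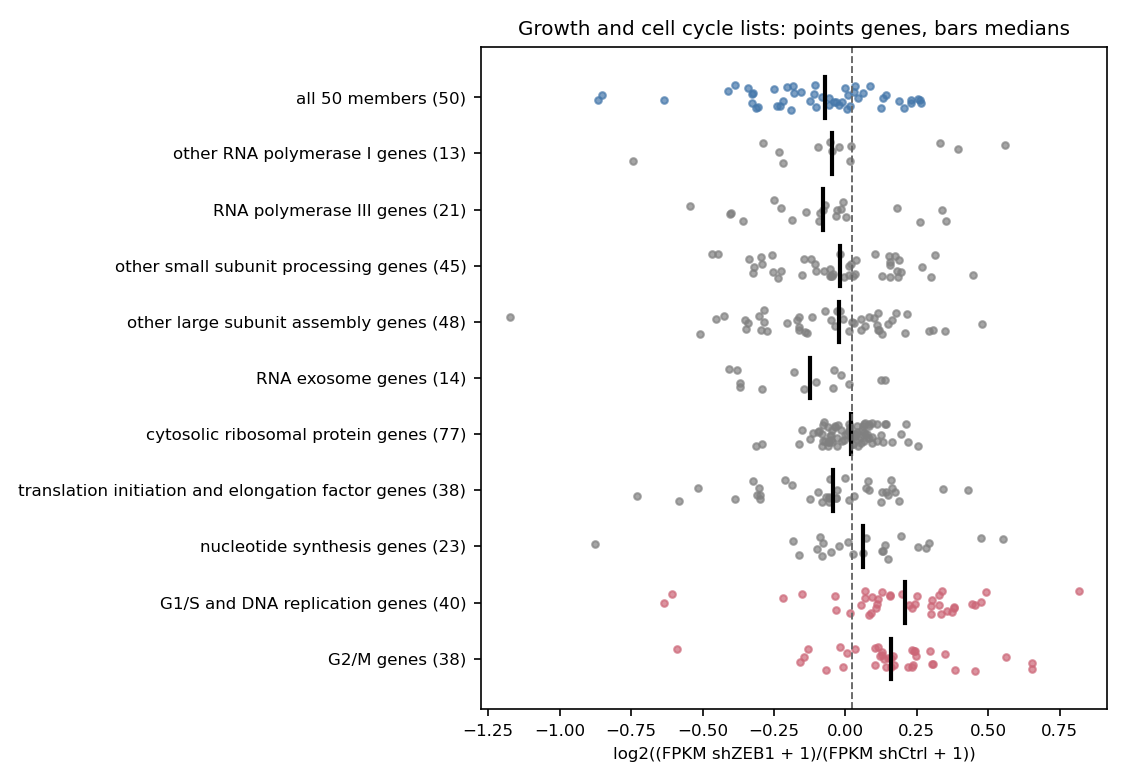
Log2 ratio of FPKM (1 added, shZEB1 over shCtrl) of the measured genes of each list (points, number of genes in brackets), with list medians as black bars and the median of all measured genes as a dashed line. The medians of the G1/S and G2/M lists, 0.21 and 0.16, lie right of the dashed line at 0.02, and that of the 50 ribosome biogenesis genes lies left of it at -0.07.

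Other processing and assembly genes had medians near that of all measured genes. Of 45 other small subunit processing genes 1 was counted as higher and 4 as lower, with a median log2 ratio of -0.02. WDR36, of the small subunit processome, was the higher one (9.83 and 13.8 FPKM), and EMG1, an rRNA methyltransferase (61.1 and 43.9), PWP2 (27.9 and 20.2) and RRP36 (73.2 and 57.6) were among the lower ones. Of 48 other large subunit genes 2 were higher and 7 lower, also with a median of -0.02. MAK16 had the lowest ratio, at 11.7 and 4.64 FPKM from 363 and 139 reads (interval 0.324 to 0.483). ZNF622 (55.2 and 38.5) and NOP53 (151 and 110.3) were lower too, and NOC3L (13.3 and 18.9) was higher. With TPM both medians were 0.03, beside 0.08 over all measured genes, so their sign depended on the scaling. Their differences from the median of all measured genes did not, at -0.04 and -0.05 with FPKM and with TPM.

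Genes of the other RNA polymerase I and III lists were counted in both directions. Of 13 further RNA polymerase I genes 2 were counted as higher, TAF1C (15.4 and 23.1 FPKM) and TAF1B (9.10 and 12.3), both subunits of SL1, as is TAF1A (2.25 and 3.09, interval 0.876 to 2.13). TTF1, which ends transcription of ribosomal DNA, was lower (15.8 and 9.03 FPKM, interval 0.536 to 0.745). Of 21 genes of RNA polymerase III, which makes the smallest rRNA and tRNAs, 2 were higher and 4 lower. These shares were 9.52% and 19%, against 15.4% and 13.1% of all measured genes. In this list 5 genes were above 0 and 16 below it, with a median of -0.08. With TPM, 9 of the 21 were above 0, while the median differed from that of all measured genes by -0.10, as with FPKM. The 4 with the largest differences were the lower ones, POLR3F (6.10 and 3.87), POLR3C (12.4 and 9.11), POLR3GL (29.04 and 21.8) and GTF3C4 (9.08 and 6.86). Of 14 genes of the RNA exosome, which trims precursor rRNA, 0 were higher and 4 lower (28.6%, against 13.1% of all measured genes). The lower ones were EXOSC4, EXOSC6, EXOSC8 and EXOSC9. In the exosome list 11 genes were below 0, and the median was -0.12. With TPM, 2 of the 14 were counted as lower. Both medians lay at least as far from that of all measured genes as the median of the 50 genes.

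Products and users of the pathway had medians near that of all measured genes. Of 77 cytosolic ribosomal protein genes 0 were counted in either direction, and the median was 0.02, or -0.01 on counts scaled by edgeR. Of 38 translation factor genes 2 were higher and 5 lower (median -0.04, and 0.01 with TPM). With either scaling that median differed from the median of all measured genes by -0.07. EIF2S1, of the initiation factor that carries the initiator tRNA, had 33.8 and 20.0 FPKM (interval 0.540 to 0.652), EIF4H 223 and 148, EIF1 512 and 358, and EIF4A2 177 and 239. Of 23 nucleotide synthesis genes 2 were higher and 1 lower (median 0.06, and -0.01 on counts scaled by edgeR). The lower one was PAICS of purine synthesis (165 and 89.3, interval 0.518 to 0.571), and CAD of pyrimidine synthesis was among the higher ones (35.5 and 52.5, interval 1.405 to 1.568).

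**Figure D5:**
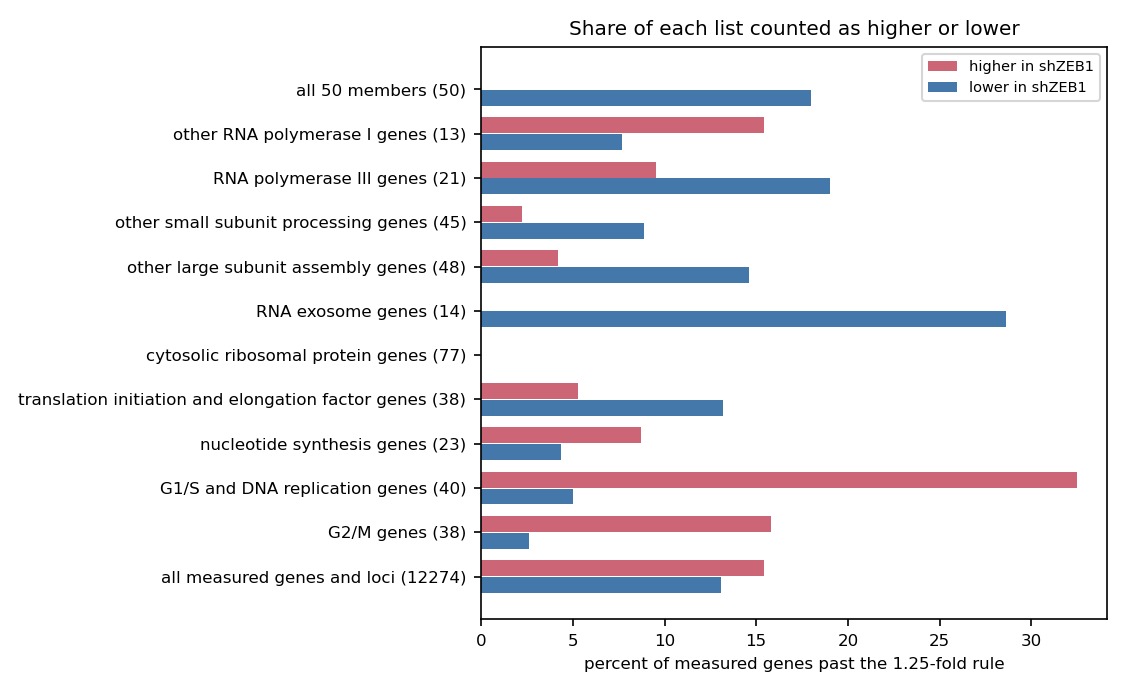
Percent of the measured genes of each list (number in brackets) counted as higher (red) or lower (blue) in shZEB1 by the rule of the text, with all measured genes at the bottom. The ribosome biogenesis genes have no red bar, against 15.4% of all measured genes, while the red bar of the G1/S list is the longest at 32.5%.

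Regulators of growth were mixed. Of 24 genes of the mTORC1 pathway, which couples nutrients to ribosome production, 2 were counted as higher and 6 as lower. These shares were 8.33% and 25%, against 15.4% and 13.1% of all measured genes. The median was -0.13, beside 0.02 over all measured genes. EIF4EBP1, a translation repressor that mTORC1 inactivates, had 209.8 and 102 FPKM (interval 0.446 to 0.535), while its paralog EIF4EBP2 had 12.6 and 23.3 (interval 1.71 to 2.03). PDCD4, another repressor of translation, had 10.7 and 19.0, and RRAGC, a GTPase that signals amino acids to mTORC1, 16.0 and 10.3. Of 12 MYC network genes 10 were measured, 2 higher and 2 lower, with a median of 0.11. MGA (2.99 and 4.94) and MXD4 (3.08 and 4.92), both competitors of MYC for MAX, were the higher ones, and MXI1 (13.9 and 9.01), of the same kind, was lower beside MYC.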

How the data were processed

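Poly(A)-selected RNA was sequenced on a DNA nanoball platform, per the labels' protocols, in 1 shCtrl and 1 shZEB1 library. The submitters' processing notes name HISAT2 2.1.0, Bowtie2 2.2.5, RSEM 1.2.8, DESeq and hg38, with no order or settings. The deposited files give, per the file headers, an expected count (estimated reads), an FPKM value and a gene length per gene, which the authors made from each library separately. Genes not listed in a file were entered at 0. Of 15217 numeric identifiers 15183 were matched in RefSeq (GRCh38.p14), which also gave coordinates and promoters. Exon overlaps and snoRNAs came from GENCODE release 29.

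Levels were compared as the log2 ratio of FPKM with 1 added to each, which understates differences of low genes. Measured means an FPKM of at least 1 in either library. Read ratios used expected counts rounded to whole numbers and library totals, with exact conditional binomial (Clopper-Pearson) 95% intervals. These cover counting error only, and reads amplified by PCR are not independent molecules. Spread between cultures was not measured. With 1 library per group there is no estimate of dispersion, so edgeR 4.0.16 (TMM) and DESeq2 1.42.0 gave scaling factors for alternatives only. Other pseudocounts, filters, scalings and folds were tried.

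The 50 genes, the 14 comparison lists and the rule for counting were chosen with earlier results of these data known. Named were all 50 genes, ZEB1, MYC, MAX, markers, and up to 4 genes of each other list with the largest absolute log2 ratio, of which some are not reported here. Scripts ran under R 4.3.3 and Python 3.11.15 with SciPy 1.17.1, pandas 2.3.3, NumPy 2.4.6 and Matplotlib 3.10.9.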

Additional observations from a re-analysis of the deposited data

How the results depend on the processing

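The median of the 50 genes was below that of all measured genes under each of 7 alternatives (a pseudocount of 0.1, an FPKM filter of 5 or none, scaling by the median ratio, TPM, edgeR TMM or DESeq2), by 0.08 to 0.10 on the log2 scale, and its own value ran from -0.11 (edgeR TMM) to -0.02 (TPM). The medians of the G1/S and G2/M lists were above 0 under all 7, from 0.16 to 0.26 and from 0.11 to 0.21. The FPKM filters left out none of the 50 genes and none of either cell cycle list. They could therefore change no value or count of these genes, only the figures for all measured genes. With TPM, 1 of the 50 was counted as higher and 4 as lower. Past a fold of 1.5, 3 were lower, and past a fold of 2, 0 were. With the read interval alone, 10 were higher and 17 lower. An alternative chosen after seeing the data left out genes with a listed exon partner or a length that differed by over 10% between files. Of the 33 left, 0 were higher and 4 lower, against 15.4% and 13.1% of all measured genes. The share of lower genes was thus close to that of all measured genes. The median of the 33 was -0.01, beside 0.02 over all measured genes. Of the 9 lower genes, 4 (POLR1D, NOP10, NIP7 and EBNA1BP2) were counted under all 7. Of 350 recomputed values of single genes, 334 lay within the counting intervals of their genes, 16 did not and 0 called values changed sign. The 16 belonged to TAF1D, DDX56, NCL and NPM1. TAF1D and DDX56 lay outside already at the main setting, where the FPKM ratio parted from the read ratio with the gene length. Their values outside are thus not shifts made by the alternatives. No paired analysis was possible because each group had 1 library. The least covered of the 50 rested on 206 reads in 1 library (NOP10), with an interval of 0.469 to 0.663, against 1.07 to 1.12 for NPM1.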

Other observations

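Genes of the ribosomal stress response were counted in both directions, with more of them above 0 than below. Of 15 such genes, 4 were counted as higher (26.7%, against 15.4% of all measured genes) and 3 as lower (20%, against 13.1%). Above 0 lay 10 of the 15 (66.7%, against 53.1%), and the median log2 ratio was 0.18, beside 0.02 over all measured genes. SESN2, a stress-induced inhibitor of mTORC1, had 401 reads in shCtrl and 146 in shZEB1, with FPKM values of 13.1 and 4.94 (interval of the read ratio 0.310 to 0.457). Its paralog SESN1 had 1.89 and 3.75, from 46 and 92 reads (interval 1.44 to 3.02). GADD45A, induced by DNA damage and other stress, had 35.0 and 22.9 (interval 0.563 to 0.773).

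Of 16 snoRNA host genes without a coding role, 1 was measured, SNHG32, with 85.0 and 80.6 FPKM (interval 0.839 to 1.08). Without a filter on FPKM it was still the only 1. The others were thus not found in the files, and whether they were expressed is not known.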
